A study of Mus musculus with 6 samples.

Results

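Voltage-gated calcium channels let calcium into a cell when its membrane depolarises, and each is built around an alpha1 subunit that forms the pore. The 9 autosomal mouse genes for this subunit were examined, out of 37310 gene identifiers in the table: Cacna1g, Cacna1h and Cacna1i of the low-voltage-activated or T-type class, and Cacna1a, Cacna1b, Cacna1c, Cacna1d, Cacna1e and Cacna1s of the high-voltage-activated class. They were chosen by name as a gene family, with the difference of Cacna1g between genotypes already known from these libraries. The genotype difference of the members is therefore given as a description and not as a test. All 9 were listed and all 9 passed the filter on low counts, so none was lost to it. The X-linked family member Cacna1f was not used here, because all 2269 identifiers on chromosome X were listed at 0 in every library.

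The libraries are of polyadenylated RNA from mouse tailbuds, cut off just before the last somite at embryonic day 9.5. One group of 3 libraries came from embryos homozygous for Danforth's short tail (Sd/Sd), a semidominant mutation caused by an insertion close to the transcription factor gene Ptf1a. The other 3 came from WT/WT embryos, and both groups were bred on the outbred CD-1 background. Where a tailbud gave too little material, those of 2 embryos went into a library, and the labels do not say in which. Tailbuds are a mixture of tissues, so in bulk RNA fewer cells of a type and less RNA per cell cannot be told apart.

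T-type channels open at small depolarisations near the resting potential and inactivate quickly, and they are known for pacemaking in the heart and burst firing in the thalamus. High-voltage-activated channels need a stronger depolarisation: the L-type members drive contraction of heart, smooth and skeletal muscle, and the P/Q-, N- and R-type members trigger transmitter release or act in dendrites of neurons. Beta and alpha2delta subunits assist the high-voltage-activated pores in reaching the membrane and set their gating, whereas T-type alpha1 subunits can form channels on their own.

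The classes can be read from the pore itself. Each alpha1 protein holds repeats of the same membrane unit, and every repeat gives the calcium selectivity filter an acidic residue; in the third repeat this is a glutamate in high-voltage-activated channels and an aspartate in T-type channels. The coding bases around that codon are printed below for 8 of the members, 5′ to 3′ on the coding strand, with the filter codon in capitals. They come from the longest open reading frame of each gene's GENCODE M21 transcripts. Each stretch was located by searching the protein for a short residue motif of each class, which includes the acidic residue.
Cacna1g: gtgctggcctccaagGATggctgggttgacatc
Cacna1h: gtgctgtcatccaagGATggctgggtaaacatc
Cacna1i: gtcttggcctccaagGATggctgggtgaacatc
Cacna1c: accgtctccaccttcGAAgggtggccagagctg
Cacna1d: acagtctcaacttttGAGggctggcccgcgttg
Cacna1a: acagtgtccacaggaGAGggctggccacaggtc
Cacna1b: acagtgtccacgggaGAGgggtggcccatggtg
Cacna1e: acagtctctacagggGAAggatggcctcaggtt
The T-type genes carry the aspartate codon GAT at this place and the other genes shown a glutamate codon, GAA or GAG. Over these 33 bases the 3 T-type pairs share 28 to 29 bases, the 10 pairs of high-voltage-activated genes share 21 to 27, and the 15 pairs across the classes share 12 to 17. The motifs fixed the filter residue and its neighbours within a class, so the residue and part of this identity follow from the search.

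Total counts per library were between 41788978 and 62296689. Ptf1a, the gene next to the insertion, had 848, 864 and 959 counts in the Sd/Sd libraries. It had 5, 2 and 1 counts in the WT libraries, so carriers of the mutation and WT were separated as labelled. That the carriers were homozygous rests on the labels, since no heterozygous library was there for comparison. Tailbud progenitor markers were present in every library: 8 of 8 (among them T, Tbx6, Msgn1 and Cdx2) were tested and none was at 0. Their summed level was 331 to 786 CPM in Sd/Sd and 492 to 702 CPM in WT. It was lowest in Sd/Sd replicate 2 and highest in Sd/Sd replicate 3. CPM are counts per 1000000 counts of the library, after scaling of library sizes by TMM.

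Cacna1g, which encodes the T-type channel best known from thalamic relay neurons and the sinoatrial node, was higher in Sd/Sd tailbuds. It lies on chromosome 11 (ENSMUSG00000020866.10) and measured 34.0, 29.2 and 26.2 CPM in Sd/Sd replicates 1 to 3, against 18.7, 14.0 and 15.7 CPM in WT replicates 1 to 3. The lowest Sd/Sd library lay above the highest WT library. The group means were 29.8 ± 3.94 CPM in Sd/Sd and 16.2 ± 2.39 CPM in WT (SD, n = 3 each), a 1.85-fold higher level with a log2 fold change of 0.88 (SE 0.14). The counts behind these values were high, at 1286 to 1831 per Sd/Sd library and 664 to 988 per WT library. With any 1 library left out the log2 fold change stayed between 0.78 and 1.01. Of the 12835 tested genes with at least 1 CPM on average, 35 had a log2 fold change as large as or larger than that of Cacna1g, or 0.273%. Cacna1g was chosen with this difference known, so nothing is read from that rank.

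Its T-type relative Cacna1h, a channel of sensory neurons and adrenal cells, had overlapping levels. Cacna1h measured 16.7, 19.5 and 17.1 CPM in Sd/Sd and 22.1, 19.4 and 15.1 CPM in WT. The Sd/Sd values all lay inside the WT range, and the log2 fold change was -0.09 (SE 0.15). The third T-type gene, Cacna1i, a channel of the thalamic reticular nucleus, was near the lower end of detection. Cacna1i had 18, 10 and 31 counts in Sd/Sd and 20, 21 and 24 counts in WT, or 0.410 ± 0.238 CPM in Sd/Sd and 0.448 ± 0.104 CPM in WT (SD, n = 3 each). The log2 fold change of Cacna1i was -0.14 (SE 0.53), a difference not detectable at this depth.

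Among the L-type genes, Cacna1c, the main calcium channel of heart and smooth muscle, was the most abundant per length and had much the same level in both groups. Cacna1c measured 15.8, 15.5 and 13.1 CPM in Sd/Sd and 15.02, 13.8 and 13.1 CPM in WT, with overlapping ranges and a log2 fold change of 0.08 (SE 0.12). Cacna1d, the L-type gene of sinoatrial pacemaking and of hearing, measured 4.42, 3.47 and 5.18 CPM in Sd/Sd and 3.85, 2.54 and 2.87 CPM in WT. The means of Cacna1d were 4.35 ± 0.859 CPM in Sd/Sd and 3.08 ± 0.684 CPM in WT (SD, n = 3 each; log2 fold change 0.50, SE 0.24), but Sd/Sd replicate 2 lay below WT replicate 1. Of the exon bases of Cacna1d, 4.67% are shared with Chdh on the opposite strand, and without a stated strand setting those reads cannot be assigned with certainty.

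Cacna1s, the voltage sensor of skeletal muscle contraction, varied more between libraries of a genotype than between genotypes. It had 5, 96 and 18 counts in Sd/Sd and 13, 72 and 47 counts in WT, or 0.121, 1.53 and 0.367 CPM in Sd/Sd and 0.247, 1.36 and 1.11 CPM in WT. The highest value of each group was replicate 2, and the log2 fold change of -0.39 (SE 0.94) became -1.85 without Sd/Sd replicate 2 and 0.09 without Sd/Sd replicate 1. Of 8 skeletal muscle markers 4 were tested, Myog was at 0 in all 6 libraries and Myod1, Chrna1 and Ttn were at 0 in at least 1. Their summed level was 59.7 to 60.9 CPM in Sd/Sd and 74.4 to 92.2 CPM in WT. Of the 4 tested, Myf5 was highest in replicate 2 among the Sd/Sd libraries and Des, Actc1 and Tnnt1 were not. The summed level of 8 primitive erythroid markers, of which 7 were tested and the X-linked Alas2 was listed at 0, was 1733, 10020 and 2797 CPM in Sd/Sd and 4245, 8809 and 3617 CPM in WT, also highest in replicate 2 of each group. The part of muscle and blood cells in the Cacna1s values was not tested. The noncoding gene Gm37759 shares 1309 exon bases with Cacna1s on the opposite strand, or 19.98% of those of Cacna1s, and was not in the table. Without a stated strand setting the reads there cannot be assigned with certainty.

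The channels of nerve terminals were present at low to moderate levels. Cacna1a, the P/Q-type gene, measured 7.76, 5.83 and 9.26 CPM in Sd/Sd and 11.1, 10.5 and 10.7 CPM in WT. All Sd/Sd libraries lay below all WT libraries, with means of 7.62 ± 1.72 CPM in Sd/Sd and 10.8 ± 0.303 CPM in WT (SD, n = 3 each; log2 fold change -0.50, SE 0.18). The spread of Cacna1a was wider among Sd/Sd than among WT libraries, and the log2 fold change moved between -0.67 and -0.34 when 1 library was left out. Cacna1a shares 3.81% of its exon bases with the noncoding gene Gm16183 on the opposite strand. Cacna1b, the N-type gene, measured 3.76, 3.43 and 4.88 CPM in Sd/Sd and 4.85, 4.96 and 5.14 CPM in WT. Only Sd/Sd replicate 3 reached the WT range of Cacna1b, and the log2 fold change was -0.31 (SE 0.19). Cacna1e, the R-type gene, measured 0.843 ± 0.282 CPM in Sd/Sd and 0.921 ± 0.568 CPM in WT (SD, n = 3 each), with WT replicate 1 highest at 1.57 CPM and a log2 fold change of -0.13 (SE 0.47). Without WT replicate 1 its log2 fold change was 0.51.

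Neuronal markers did not separate the genotypes. Of 8 listed, 7 were tested and 0 passed (edgeR; 0 at an unadjusted p under 0.05), and Dcx, which is X-linked, was listed at 0. Their summed level was 58.8 to 70.3 CPM in Sd/Sd and 65.7 to 70.4 CPM in WT. Sd/Sd replicate 3 had low levels of somite markers, at 34.2 CPM summed over 8 against 201 to 431 CPM in the other libraries. Of these 8, the X-linked Ripply1 was listed at 0. Neural progenitor markers were also low there, at 77.9 CPM summed over the 7 in the table against 137 to 224 CPM. Without Sd/Sd replicate 3 the log2 fold change of Cacna1g was 0.97 and that of Cacna1a -0.67. Sd/Sd replicate 2 lay the other way, with the highest somite and neural progenitor sums, 431 and 224 CPM. Its tailbud progenitor sum was the lowest, at 331 CPM. Without Sd/Sd replicate 2 the log2 fold change of Cacna1g was 0.90 and that of Cacna1a -0.34. Marker sums that did separate the genotypes, with lower values in Sd/Sd, were notochord and floor plate (36.8 to 59.7 CPM in Sd/Sd, 79.7 to 88.6 CPM in WT; 8 of 8 tested, 1 past the edgeR threshold, Shh, 5 at an unadjusted p under 0.05, 3 by DESeq2, 0 by limma-voom, none at 0), hindgut endoderm (170 to 183 CPM in Sd/Sd, 213 to 240 CPM in WT; 8 of 8 tested, 0 past the edgeR threshold, 5 at an unadjusted p under 0.05, 2 by DESeq2, 0 by limma-voom, none at 0) and the skeletal muscle list above. Des and Actc1 held most of the skeletal muscle sum, at 25.7 and 33.7 of 60.9 CPM in Sd/Sd replicate 1. They were the 2 of its 4 tested genes at an unadjusted p under 0.05 (edgeR), and 0 passed. Myf5 and Tnnt1 had overlapping groups, with log2 fold changes of 0.71 and -0.06. Over all genes fitted, edgeR called 0.0582%, DESeq2 0.176% and limma-voom 0.0194%, and 2.90% had an unadjusted edgeR p under 0.05. The part of these lists in the levels of Cacna1g and Cacna1a was not tested.

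Levels of different genes were compared per kilobase of exon, as CPM per kb. In WT tailbuds Cacna1h stood first at 1.93 ± 0.363 CPM per kb and Cacna1g second at 1.59 ± 0.236, with overlapping ranges (SD, n = 3). In Sd/Sd tailbuds Cacna1g stood first at 2.94 ± 0.388 CPM per kb and Cacna1h second at 1.82 ± 0.156, with no overlap. The level of Cacna1g divided by that of Cacna1h was 1.97, 1.44 and 1.47 in the Sd/Sd libraries, against 0.816, 0.696 and 1.00 in the WT libraries. Cacna1h stood above all high-voltage-activated genes in every library. In Sd/Sd, Cacna1c (0.698 ± 0.0711 CPM per kb) and Cacna1a (0.667 ± 0.151) overlapped, while in WT Cacna1a (0.942 ± 0.0266) lay above Cacna1c (0.659 ± 0.0462) in 3 of 3 libraries. Cacna1b followed below Cacna1c in all 6 libraries and stood above Cacna1d in all 6. Cacna1s, Cacna1i and Cacna1e came last, with overlapping ranges among them. Cacna1d stood above Cacna1s in 3 of 3 Sd/Sd libraries and 2 of 3 WT libraries, where their ranges overlapped.

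**Figure D1:**
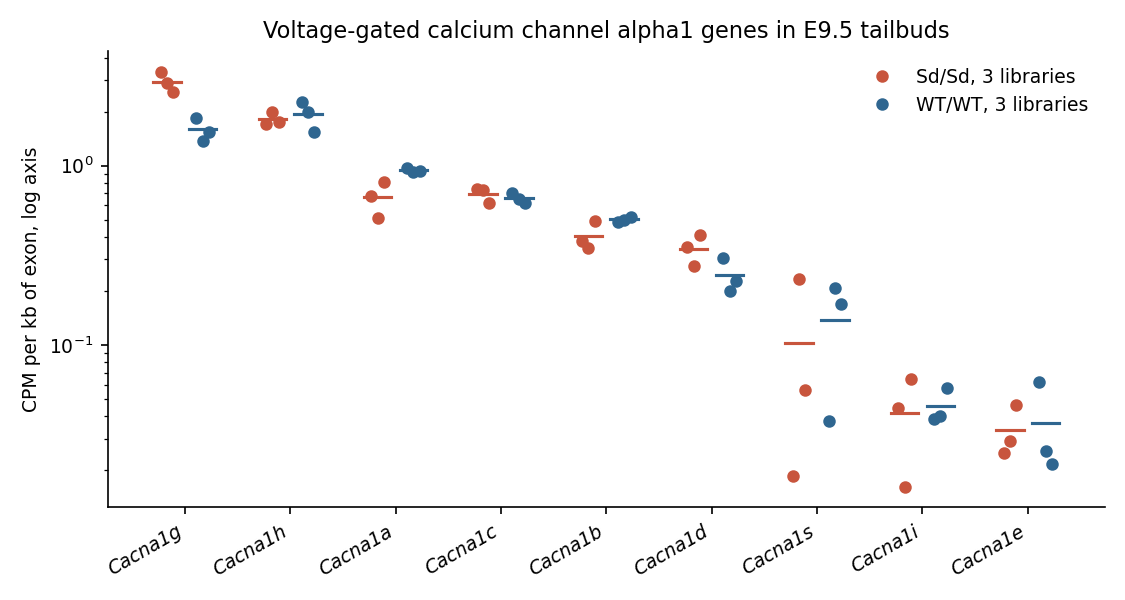
Level of each alpha1 subunit gene in CPM per kb of exon (vertical log axis), with a point per library and a bar at the group mean, Sd/Sd on the left and WT on the right of each gene, genes ordered by their mean over the 6 libraries. Cacna1g is the gene whose 3 Sd/Sd points all lie above its WT points, Cacna1a has its Sd/Sd points below, and Cacna1s spreads widely within both groups.

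Summed over the 9 genes, the alpha1 signal was 7.31, 7.02 and 6.84 CPM per kb in Sd/Sd and 6.73, 5.92 and 5.64 CPM per kb in WT, without overlap. Without Cacna1g the other 8 genes summed to 3.95, 4.14 and 4.25 CPM per kb in Sd/Sd and 4.88, 4.53 and 4.09 in WT, with overlapping ranges. T-type genes made up 68.0% ± 3.10 of the per-length signal in Sd/Sd and 58.4% ± 2.99 in WT (SD, n = 3 each), a difference of 9.61 percentage points. Cacna1g alone took 46.0%, 41.1% and 37.9% in Sd/Sd, against 27.5%, 23.4% and 27.5% in WT. The mean shares of Cacna1h and Cacna1i were lower in Sd/Sd, at 25.8% and 0.59% against 31.6% and 0.76% in WT. The higher T-type share thus rested on Cacna1g, whose difference was known when the genes were chosen. For Cacna1a the share lay at 7.27% to 11.9% in Sd/Sd, against 14.4% to 16.6% in WT. Shares add to a fixed total, so a higher share of Cacna1g lowers the others by construction.

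**Figure D2:**
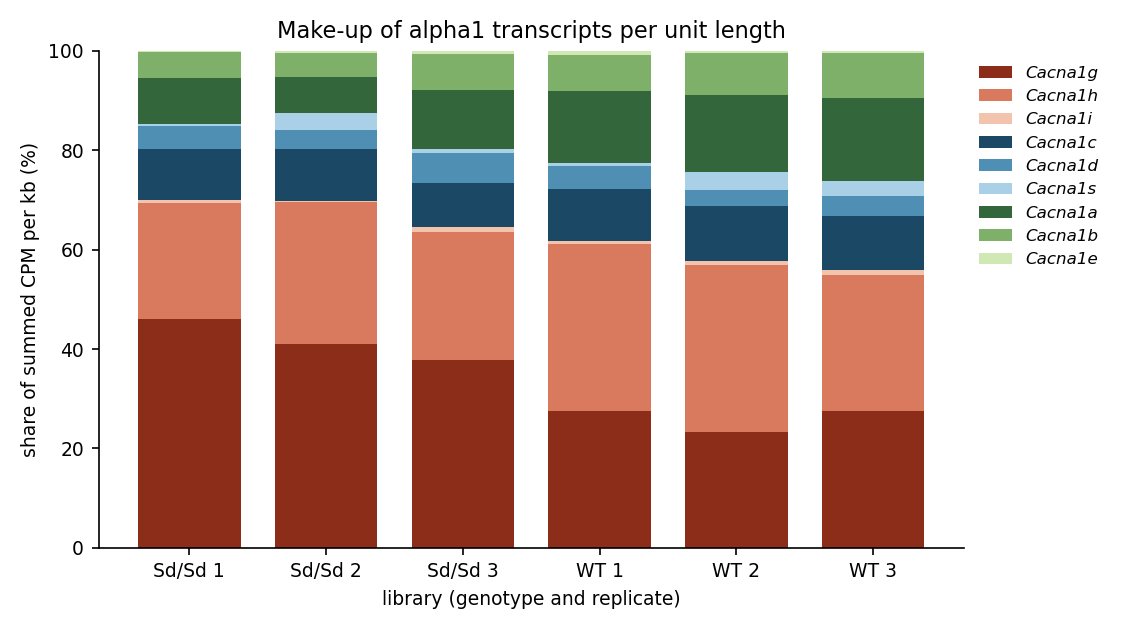
Share of each alpha1 gene in the summed CPM per kb of the 9 genes (vertical axis, percent) in each library (horizontal axis, Sd/Sd left, WT right), with T-type genes in reds, L-type in blues and P/Q-, N- and R-type in greens. The darkest red block, Cacna1g, fills 37.9% to 46.0% of the Sd/Sd bars and 23.4% to 27.5% of the WT bars.

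In the fit across all genes, 0 of the 9 members were past an adjusted p of 0.05 (edgeR quasi-likelihood test), where 9 of 15471 genes, or 0.0582%, were called. At an unadjusted p under 0.05 there were 2 members, Cacna1g and Cacna1a, against 2.90% of all genes. DESeq2 called 1 member, Cacna1g, where it called 0.176% of 22154 genes, and limma-voom called 0, where it called 0.0194%. The 22154 genes were not filtered on low counts as for edgeR, and any without an adjusted p counted as not called. With the replicate number as a block, edgeR called 1 member, Cacna1g, where it called 0.0776% of genes. Without the filter on low counts edgeR called 1 member, Cacna1g, and 0.0632% of genes; the stricter filter gave 0 members and 0.062% of genes, and the fit without the robust option 0 members and 0.0194% of genes. With a library left out, 0 members were called in any of the 6 fits, which called 0.0189%, 0.0381% and 0.0316% of genes without Sd/Sd replicates 1, 2 and 3, and 0.0254%, 0.0127% and 0.0189% without WT replicates 1, 2 and 3. The members were chosen with this difference known, so nothing is read from these counts. Groups without overlap were found for 1 member higher in Sd/Sd, Cacna1g, and 1 lower, Cacna1a; over all genes tested the percentages were 3.26% and 4.42%. The median log2 fold change of the members was -0.13, with 3 positive and 6 negative, beside a median of 0.00 and 49.9% positive over all genes tested.

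The genes that flank Cacna1g on chromosome 11 showed no such difference. In annotation order, Ankrd40 and Abcc3 precede Cacna1g and Epn3 and Mycbpap follow it among tested genes. Abcc3, a transporter of organic anions and the nearest on its side, measured 1.93 ± 0.133 CPM in Sd/Sd and 1.84 ± 0.487 CPM in WT (SD, n = 3 each; log2 fold change 0.07, SE 0.27). Epn3, an endocytic adaptor gene, measured 5.76 ± 1.36 CPM in Sd/Sd and 6.19 ± 0.387 CPM in WT (SD, n = 3 each; log2 fold change -0.10, SE 0.20). Ankrd40 and Mycbpap showed log2 fold changes of 0.04 (SE 0.07) and 0.09 (SE 0.27), and all 4 had overlapping groups.

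Among 12834 other tested genes with at least 1 CPM on average, Pgbd5, Nfam1, Tmco4, Lgi4 and Arsg had the pattern most like that of Cacna1g over the 6 libraries. Likeness was the root mean square difference between log2 CPM centred on the mean of the libraries, which was 0.155, 0.183, 0.190, 0.208 and 0.225 in that order. Pgbd5, a gene derived from a piggyBac transposase, measured 12.3, 10.96 and 7.32 CPM in Sd/Sd and 5.95, 5.34 and 5.21 CPM in WT. Nfam1, an immune receptor gene with an activation motif, measured 11.9, 9.63 and 11.8 CPM in Sd/Sd and 6.41, 6.05 and 6.75 CPM in WT. Both were higher in every Sd/Sd library, as were Tmco4 (1.96 to 2.64 CPM in Sd/Sd, 1.10 to 1.76 CPM in WT), Lgi4, a secreted factor of peripheral glia (2.84 to 3.75 CPM in Sd/Sd, 1.94 to 2.31 CPM in WT), and Arsg, a lysosomal sulfatase (3.86 to 4.37 CPM in Sd/Sd, 2.18 to 3.03 CPM in WT). Selection by likeness to Cacna1g fixed this direction. Of these 5, Arsg lies on the same chromosome as Cacna1g.

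**Figure D3:**
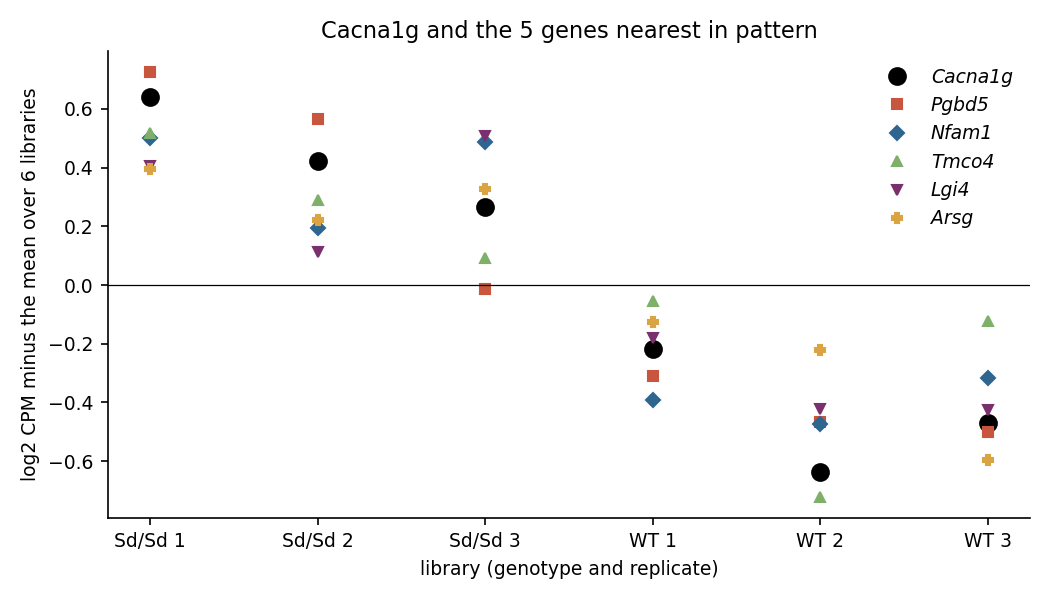
Log2 CPM minus the mean over the 6 libraries (vertical axis) for Cacna1g and the 5 genes nearest to it in pattern, by library (horizontal axis, Sd/Sd left, WT right). Cacna1g lies at 0.26 to 0.64 in Sd/Sd and at -0.64 to -0.22 in WT; Pgbd5 follows it except in Sd/Sd replicate 3, where it lies at -0.01.

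The auxiliary subunit genes did not differ detectably between the genotypes. Of 16 listed genes 11 were tested, and 0 passed an adjusted p of 0.05 by edgeR, with 0 at an unadjusted p under 0.05 and 0 by DESeq2, limma-voom or the replicate block. Their log2 fold changes lay between -0.41 and 0.60 with a median of -0.01, and 0 of the 11 had groups without overlap. Over all genes tested, 0.0582% were called, 2.90% had an unadjusted p under 0.05, and 3.26% were higher and 4.42% lower without overlap, so counts of 0 among 11 genes are near the background.

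Among the beta subunits, which bind the pore from inside the cell, Cacnb3 was the most abundant per length, at 15.7 ± 1.15 CPM per kb in Sd/Sd and 16.2 ± 1.53 CPM per kb in WT (SD, n = 3 each). Cacnb3 measured 68.1, 61.2 and 59.3 CPM in Sd/Sd and 70.4, 66.7 and 58.4 CPM in WT (log2 fold change -0.05, SE 0.09, edgeR adjusted p = 1.00). Cacnb1, the skeletal muscle beta subunit, stood at 1.68 ± 0.153 CPM per kb in Sd/Sd and 1.70 ± 0.00822 CPM per kb in WT (SD, n = 3 each; log2 fold change -0.01, SE 0.14). Cacnb2 and Cacnb4, the main beta subunits of heart and cerebellum, showed log2 fold changes of -0.03 (SE 0.39) and 0.14 (SE 0.38).

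Of the alpha2delta subunits, extracellular proteins that carry channels to the surface, Cacna2d1 led at 15.5 ± 1.69 CPM in Sd/Sd and 16.4 ± 1.04 CPM in WT (SD, n = 3 each; log2 fold change -0.07, SE 0.12). Cacna2d2 and Cacna2d3 showed log2 fold changes of 0.30 (SE 0.25) and 0.60 (SE 0.57), and Cacna2d4 was too low to be tested, with 18 counts in Sd/Sd and 13 in WT. In the gamma family, Cacng7 and Cacng4, better known as partners of AMPA-type glutamate receptors, were the abundant members. Cacng7 measured 32.0, 25.7 and 23.6 CPM in Sd/Sd and 24.9, 26.2 and 24.7 CPM in WT (log2 fold change 0.10, SE 0.12, edgeR adjusted p = 1.00). Cacng4 measured 12.3 ± 1.42 CPM in Sd/Sd and 12.2 ± 1.23 CPM in WT (SD, n = 3 each; log2 fold change 0.02, SE 0.14). Cacng5 and Cacng8 showed log2 fold changes of -0.41 (SE 0.60) and -0.20 (SE 0.39). Cacng1, the gamma subunit of skeletal muscle, had 1 count in Sd/Sd and 8 in WT, Cacng6 had 10 in each, and Cacng2 and Cacng3 had at most 2 counts per group, so these were not tested.

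**Figure D4:**
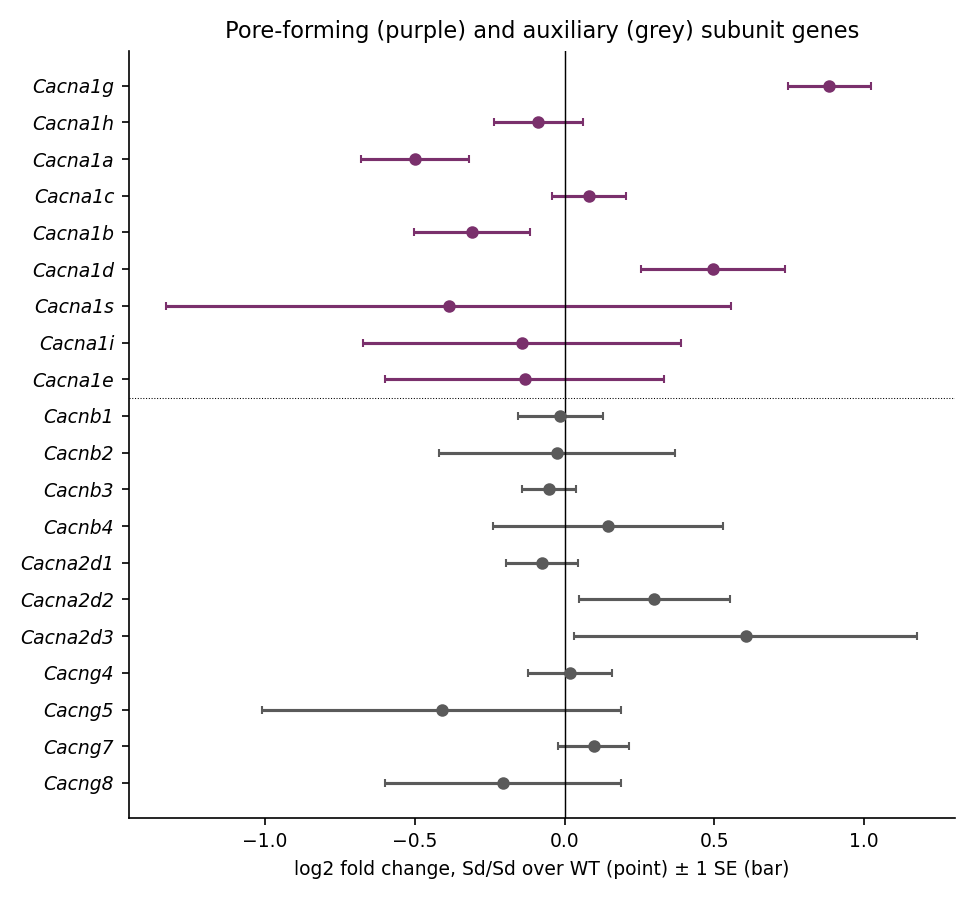
Log2 fold change of Sd/Sd over WT (horizontal axis, bars of 1 SE) for the 9 pore-forming genes in purple, ordered by level per length, and the 11 tested auxiliary subunit genes in grey. Cacna1g lies at 0.88, farther from 0 than any other gene plotted. The auxiliary genes with the smallest SEs, Cacnb3, Cacnb1, Cacna2d1, Cacng4 and Cacng7, lie between -0.07 and 0.10. Those with larger SEs lie between -0.41 and 0.60.

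Genes that act with these channels were followed in 5 further lists of 57 genes: calmodulin and channel adaptors, intracellular calcium release and store-operated entry, calcium pumps and exchangers, sodium channels, and calcium-activated potassium and HCN pacemaker channels. Of the 52 tested, 0 passed an adjusted p of 0.05 by edgeR, 2 had an unadjusted p under 0.05, Itpr2 and Slc8a3, and DESeq2 and limma-voom called 0. Groups without overlap were found for 1 gene higher in Sd/Sd, Itpr2, and 3 lower, Slc8a3, Kcnma1 and Calm2, the last a calmodulin gene named after its values were seen. Over all genes tested, 0.0582% were called, 2.90% had an unadjusted p under 0.05, and 3.26% were higher and 4.42% lower without overlap, so these counts are near the background. The median log2 fold change was -0.09, with 14 positive and 38 negative. That is a smaller positive share than the 49.9% over all genes tested, and the split of signs was not tested.

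Calcium release and store-operated entry had 0 of 11 past the threshold, 5 with a positive and 6 with a negative log2 fold change. Itpr2, an inositol trisphosphate receptor of the endoplasmic reticulum, measured 8.73, 8.02 and 10.5 CPM in Sd/Sd and 5.92, 5.05 and 6.80 CPM in WT. Its groups did not overlap, with a log2 fold change of 0.62 (SE 0.18), and it was not called (edgeR adjusted p = 1.00). Stim1, the calcium sensor of the stores, had a log2 fold change of -0.22 (SE 0.18).

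Pumps and exchangers had 0 of 10 past the threshold and 9 with a negative log2 fold change, where 49.9% of all genes tested had a positive one. Most of these negative values lay closer to 0 than their SE, such as Atp2a2 at -0.06 (SE 0.09). Slc8a3, a sodium-calcium exchanger, measured 1.89, 1.20 and 0.796 CPM in Sd/Sd and 2.03, 2.04 and 2.61 CPM in WT. All Sd/Sd values of Slc8a3 lay below all WT values (log2 fold change -0.79, SE 0.34, edgeR adjusted p = 1.00). Atp2a1, the calcium pump of fast muscle, had a log2 fold change of 0.59 (SE 0.40) at 0.726 ± 0.0652 CPM in Sd/Sd and 0.480 ± 0.209 CPM in WT (SD, n = 3 each).

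Calmodulin and adaptor genes had 0 of 12 past the threshold, and Rem1 and Rem2, small GTPases that inhibit high-voltage-activated channels, showed log2 fold changes of -0.71 (SE 0.36) and -0.43 (SE 0.26). Sodium channel genes had 0 of 11 past the threshold, and Scn2a, a pore-forming sodium channel gene of neurons, had a log2 fold change of -0.53 (SE 0.46). Calcium-activated potassium and pacemaker channels had 0 of 8 past the threshold, and Kcnma1 and Kcnn3, a large- and a small-conductance channel, showed log2 fold changes of -1.68 (SE 0.81) and -0.57 (SE 0.42). Kcnma1 rested on 7, 5 and 0 counts in Sd/Sd and 13, 17 and 9 counts in WT.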

How the data were processed

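Polyadenylated RNA of 3 Sd/Sd and 3 WT tailbud libraries was sequenced from a stranded kit, per the labels' protocols. The build mm9 and the tools STAR 2.5.2b, SAMtools, DESeq2, CASAVA and bcl2fastq 2.17.1.14 are named, per the submitters' processing notes; for the counter, its strand setting and the annotation no name is given in the sources used here. Each library has a table from the authors with unnormalised counts for every Ensembl gene identifier. GENCODE M21 (GRCm38) named 32620 of the 37310 identifiers and gave exon lengths and gene order; lengths from another build are approximate, and no coordinates are given.

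filterByExpr (minimum count 10, minimum total 15) kept 15471 genes with 99.967% of counts. Sd/Sd was compared with WT across all of them with edgeR 4.0.16 in R 4.3.3 (TMM, robust, glmQLFit and glmQLFTest, 2-sided, Benjamini-Hochberg, threshold 0.05); the biological coefficient of variation was 18.6%. The SE is the log2 fold change divided by the root of F. The scripts were tested on simulated data. With 3 libraries on each side the smallest p of an exact permutation is 0.1. The labels do not state separate litters, so the p-values reflect only how far these libraries scatter, which may be technical.

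The members and lists were chosen with earlier results of these data known. Named genes were all members and tested auxiliary subunits, the 2 smallest p of each further list, 2 flanking genes per side and the 5 nearest patterns. A gene that this rule names and a sequence are not reported here. Alternatives were DESeq2 1.42.0, limma-voom (limma 3.58.1), RLE factors, 2 filters (none; at least 1 CPM in 3 libraries), no robust option, a replicate block, leaving out each library, and transcript length.

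Libraries of the same number deviated together from their group means over all tested genes, at correlations of 0.194, 0.144 and 0.275 for numbers 1, 2 and 3; all lie above 0.1, though Sd/Sd replicate 2 and WT replicate 1 also reached 0.182, and the labels do not say what the numbers share. No 2 libraries of a group agreed within sampling noise.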

Additional observations from a re-analysis of the deposited data

How the results depend on the processing

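The count of 9 genes called in all was 39 with DESeq2, 3 with limma-voom, 14 without a filter on low counts, 3 without the robust option and 2 to 6 with 1 library left out. The count of members called, 0, became 1 with DESeq2, 1 without a filter on low counts and 1 with the replicate block, Cacna1g each time; limma-voom, RLE factors, the stricter filter, the fit without the robust option and the 6 fits without a library gave 0. Cacna1g called by DESeq2 and the block was not called by limma-voom, and the cause was not tested. The replicate block gave 12 genes in all and changed no other call among the members, auxiliary subunits and further lists. The log2 fold change of Cacna1g was 0.78 to 1.01 over the 13 alternatives, and the auxiliary subunits had 0 calls in all 13. The difference in T-type share was 8.35 to 11.4 percentage points with 1 library left out and 9.80 with the longest transcript as length. That difference rested on Cacna1g. The log2 fold changes of Cacna1a, Cacna1b, Cacna1c and Cacna1d kept their sign in all 13, while those of Cacna1h, Cacna1i, Cacna1e and Cacna1s changed sign in 1, 2, 2 and 2 fits, all with a library left out. Cacna1e and Cacna1i did not pass the stricter filter. Without WT replicate 1, Cacna1e had a log2 fold change of 0.51. Cacna1s, Cacna1i and Cacna1e rest on 5 to 96 counts per library, and their log2 fold changes have SEs of 0.94, 0.53 and 0.47.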
